A study of Mus musculus with 8 samples.

Results

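The transcripts described here are those of the 4 phosphatase and actin regulators, Phactr1 to Phactr4, and of the 3 genes for the catalytic subunits of protein phosphatase 1 (PP1), Ppp1ca, Ppp1cb and Ppp1cc. These 7 genes were taken by name from a table of 52224 genes. The set was selected on a measured value: Phactr2 was among the genes that passed the test between the same groups in the same table; the other Phactr genes and the catalytic subunits were added as its relatives and its binding partner. The group differences of the 7 genes are therefore given as a description, without a test. RNA was sequenced from mouse hematopoietic stem cells, taken from marrow as LSK cells (lineage-negative, Sca-1-positive, Kit-positive) that carried CD150 and lacked CD48. There were 4 libraries of genotype DekTg and 4 of genotype DekCon; the labels name the mice only by these genotypes and give no promoter, age, sex or number of mice. The study concerns DEK, a chromatin protein, in replication stress and in stem cells of Fanconi anemia, and the comparison asks which transcripts differ between stem cells of the 2 genotypes.

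PP1 is a serine/threonine phosphatase that acts on many proteins, and it gets its targets from regulatory subunits that dock on the catalytic subunit. Phactr proteins are such subunits: a C-terminal region binds PP1, and RPEL motifs bind monomeric actin, which competes with PP1 for the protein. Through these contacts the family links the state of the actin cytoskeleton to dephosphorylation, for example of cofilin, a factor that severs actin filaments.

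Values are read counts divided by 1 size factor per library, called normalized read counts here, and libraries held between 2525637 and 4100736 reads. Dek was listed at 1862 to 2710 in DekTg and at 395 to 632 in DekCon; none of its 4 DekTg values comes out as a whole read count, so no fold is drawn from them. All values of the 7 genes are whole reads, between 35 and 1969 reads per library. Libraries 1 and 4 of each group were closer to each other than any other pair: over genes the chi-square per degree of freedom was 1.67 for that pair in DekTg and 1.58 in DekCon, against 3.62 to 7.83 for the other pairs, and whether they share a source was not tested. DekCon replicate 2 stood apart in its megakaryocyte and platelet markers, which summed to 10574 there and to between 2391 and 5538 in the other 7 libraries. DekTg replicate 3 stood apart in its neutrophil markers, which summed to 16411 there. They summed to between 2181 and 4719 in the other DekTg libraries and to between 3930 and 10121 in DekCon. The sorted markers Kit (1072 to 1557), Slamf1, which encodes CD150 (190 to 212.5 in DekTg and 228 to 300.4 in DekCon, without overlap), and Ly6a, which encodes Sca-1 (110 to 248), were present in all 8 libraries, and so was Cd48 (128 to 259), whose protein the sort excluded. Slamf1 was among 10 stem cell markers, of which 0 passed between the groups (limma adjusted p under 0.05). Groups did not overlap for 3.97% of all genes tested.

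Phactr2 was the family member with the most reads, and it was lower in DekTg. Its normalized read counts in replicates 1 to 4 were 431, 613, 437 and 506 in DekTg, against 1431, 1383, 741 and 1338 in DekCon. The groups did not overlap, and the nearest values were those of DekTg replicate 2 and DekCon replicate 3. The means were 497 ± 85 in DekTg and 1223 ± 324 in DekCon (SD, n = 4 each), a ratio of 0.406. On the log2(value + 1) scale the difference was -1.27 (SE 0.19, 95% interval -1.66 to -0.87, from the limma fit over all genes), or between 0.317 and 0.546 times the DekCon level. Phactr2 was chosen for passing this same fit, so the interval is no test and the difference may be overstated. In bulk RNA, fewer cells with the transcript and less transcript per cell cannot be told apart.

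The position and promoter of Phactr2 are shown because its transcript differed most, with the promoter of Phactr4, the other member whose groups did not overlap. Phactr2 spans 267 kb of chromosome 10 from 13207717 to 13474412 on the minus strand (GENCODE M21, GRCm38) and is overlapped by 0 annotated genes. GENCODE gives its coding transcripts 4 start positions, and reads counted per gene do not tell them apart. RefSeq's table holds 1 start for the gene, 150.1 kb inside the end of its span. The 250 bases before the RefSeq start site (GRCm38.p6, minus strand, 5′ to 3′) lie at chr10:13324290-13324539 for Phactr2 and at chr4:132422447-132422696 for Phactr4. Capitals mark matches, on either strand, to 8 motifs searched: the GC box GGGCGG, the ETS core CCGGAAG, the RUNX motif TGTGGT, the E-box CAGCTG, the GATA motif AGATAA, the cyclic AMP element TGACGTCA, the TATA motif TATAAA and the CArG box of serum response factor.
Phactr2: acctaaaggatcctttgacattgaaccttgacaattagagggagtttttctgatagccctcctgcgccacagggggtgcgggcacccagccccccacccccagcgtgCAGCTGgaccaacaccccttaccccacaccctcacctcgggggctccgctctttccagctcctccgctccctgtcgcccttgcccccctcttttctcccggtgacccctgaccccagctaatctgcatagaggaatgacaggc
Phactr4: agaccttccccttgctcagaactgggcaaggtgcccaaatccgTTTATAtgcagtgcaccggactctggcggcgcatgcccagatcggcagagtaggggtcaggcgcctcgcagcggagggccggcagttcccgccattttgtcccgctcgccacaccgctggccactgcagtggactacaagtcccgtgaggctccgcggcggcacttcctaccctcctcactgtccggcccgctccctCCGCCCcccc
The Phactr2 window holds 1 E-box, a motif found in 13.1% of 32536 windows of the same length before RefSeq start sites. The Phactr4 window holds 1 TATA motif, on the opposite strand (12.3% of windows hold one), and 1 GC box (33%), also on that strand. The windows share 0 of these motifs. G and C make up 61.2% of the Phactr2 window and 66.8% of the Phactr4 window, where the median over all windows is 52.4%. A match is a run of letters and not a measured binding site.

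The coding genes next to Phactr2 overlapped between the groups. Ltv1, a ribosome assembly factor 14.5 kb away, averaged 157 ± 23 in DekTg and 176 ± 56 in DekCon, and Fuca2, a fucosidase 25.1 kb away on the other side, averaged 233 ± 38 in DekTg and 218 ± 16 in DekCon (SD, n = 4 each). In all, 0 of the 3 nearest on each side passed the limma test (adjusted p from 0.842 for Plagl1 to 0.974 for Zc2hc1b), and their log2 differences lay between -0.15 for Pex3, a peroxisome biogenesis factor, and 0.30 for the zinc finger gene Plagl1. The 95% intervals were -0.52 to 0.26 for Ltv1 and -0.21 to 0.37 for Fuca2. Plagl1, Zc2hc1b and Adat2 had few reads, 10 to 24, 12 to 17 and 4 to 24 per library. Their intervals were wider, -0.28 to 0.89, -0.58 to 0.73 and -0.67 to 0.99. Across all genes tested 0.0347% passed, so nothing is read from the count of neighbours that passed.

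**Figure D1:**
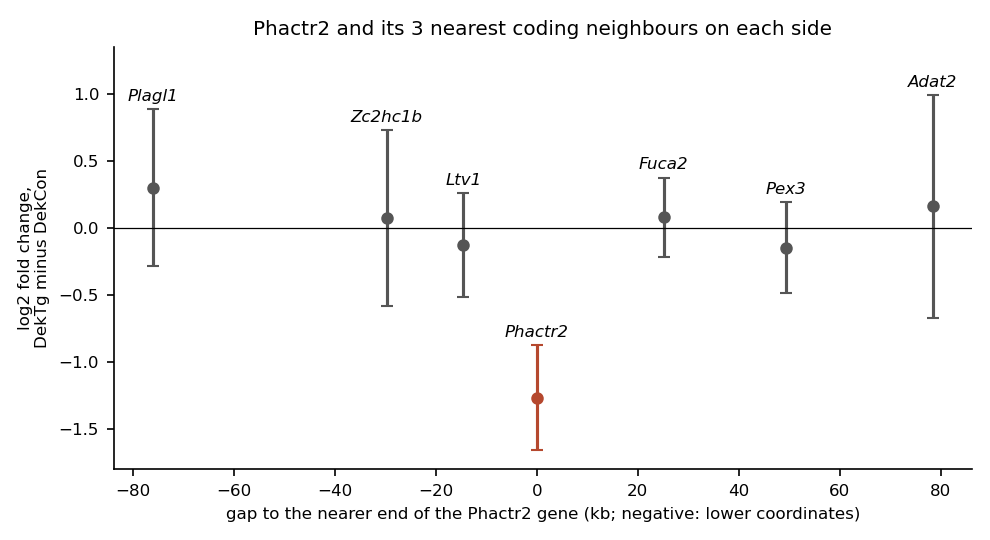
Log2 fold change (DekTg minus DekCon, y axis) of Phactr2 in red and of its 3 nearest coding neighbours on each side, against the gap to Phactr2 in kb (x axis); bars are 95% intervals of the limma fit. Phactr2 lies at -1.27, and the 6 neighbours lie between -0.15 and 0.30 with intervals that include 0.

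Of the other Phactr genes, Phactr4 was slightly lower in DekTg and Phactr1 and Phactr3 overlapped between the groups. Phactr4, which in mice is needed for closure of the neural tube and acts there through PP1, had 130, 114, 128 and 134 in DekTg replicates 1 to 4, against 150, 139, 157 and 151 in DekCon. Its groups did not overlap, but the gap between them is narrow, from 134 to 139. The means were 127 ± 9 in DekTg and 149 ± 8 in DekCon (SD, n = 4 each), and the log2 difference was -0.24 (SE 0.13, 95% interval -0.51 to 0.04).

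Phactr1, a PP1 and actin binding protein that regulates actomyosin, had 169, 165, 202 and 201 in DekTg, against 232, 199, 166 and 172 in DekCon. DekCon replicate 1 is the highest library, and the other 3 DekCon values lie within the DekTg range. The means were 184 ± 20 in DekTg and 192 ± 30 in DekCon, and the log2 difference was -0.06 (95% interval -0.36 to 0.25), which allows a fold between 0.779 and 1.19.

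Phactr3, also called scapinin, a member first found in the nuclear matrix, had the lowest values of the family. It had 60.2, 62.5, 68.9 and 50.4 in DekTg, against 44.4, 54.5, 61.2 and 64.8 in DekCon. The groups overlapped over most of their range, and with 35 to 84 reads per library these values carry the largest counting error of the 7 genes. The log2 difference was 0.11 (95% interval -0.27 to 0.49), and 0.0012 without DekCon replicate 1.

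The groups of each catalytic subunit gene overlapped, and Ppp1cb had the largest log2 difference among them. Ppp1ca, which encodes the alpha subunit, had 997, 1206, 1244 and 1060 in DekTg, against 1240, 1884, 1124 and 1199 in DekCon. DekTg replicates 1 and 4 lie below all DekCon values, the other DekTg libraries overlap DekCon, and DekCon replicate 2 stands alone above them. The means were 1127 ± 117 in DekTg and 1362 ± 352 in DekCon (SD, n = 4 each), with a log2 difference of -0.25 (95% interval -0.57 to 0.08). Exons of Ppp1ca overlap exons of Rad9a, a checkpoint clamp gene on the other strand, and the sources used here do not say whether reads were counted by strand. Rad9a averaged 79.6 ± 4.8 in DekTg and 104 ± 35 in DekCon, and its highest library, at 154, was also DekCon replicate 2, and reads of the 2 genes cannot be told apart where their exons overlap. Without DekCon replicate 2 the log2 difference of Ppp1ca was -0.08.

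Ppp1cb, which encodes the beta subunit that myosin phosphatase uses, had 273, 383, 329 and 270 in DekTg, against 389, 411, 364 and 405 in DekCon. DekTg replicate 2 lies above DekCon replicate 3, and the other DekTg values lie below all 4 DekCon values. The means were 314 ± 54 in DekTg and 392 ± 21 in DekCon (SD, n = 4 each), and the log2 difference was -0.34 (95% interval -0.62 to -0.05, not adjusted for the number of genes). Ppp1cb did not pass the threshold over all genes. Gm43312, an annotated transcript that shares exon sequence and strand with it, averaged 14.2 ± 3.4 in DekTg and 22.2 ± 8.8 in DekCon, with overlapping groups. The remaining annotated genes that lie across members share no exon with them, apart from AC109138.6 at Ppp1ca. AC109138.6, Gm26086 and Gm25707 have no value here. The genes are Gm15809, Gm15810, Gm15812, Gm15813 and Gm26086 at Phactr1, Gm25707 at Phactr4, Gm43313, Gm15613 and Gm15614 at Ppp1cb, and Gm42748 at Ppp1cc, the highest of them at 40.1 ± 10.9 in DekTg and 40.1 ± 4.8 in DekCon.

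Ppp1cc, which encodes the gamma subunit, had 134, 166, 182 and 204 in DekTg, against 166, 166, 145 and 177 in DekCon. The DekTg values enclosed the DekCon values. The log2 difference was 0.06 (95% interval -0.26 to 0.37), which allows a fold between 0.837 and 1.29. Reads of Ppp1cc could be shared with its retrogene copy Ppp1ccb, which was listed at 0 in 6 libraries and at 1.27 and 0.942 in DekCon replicates 1 and 3.

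**Figure D2:**
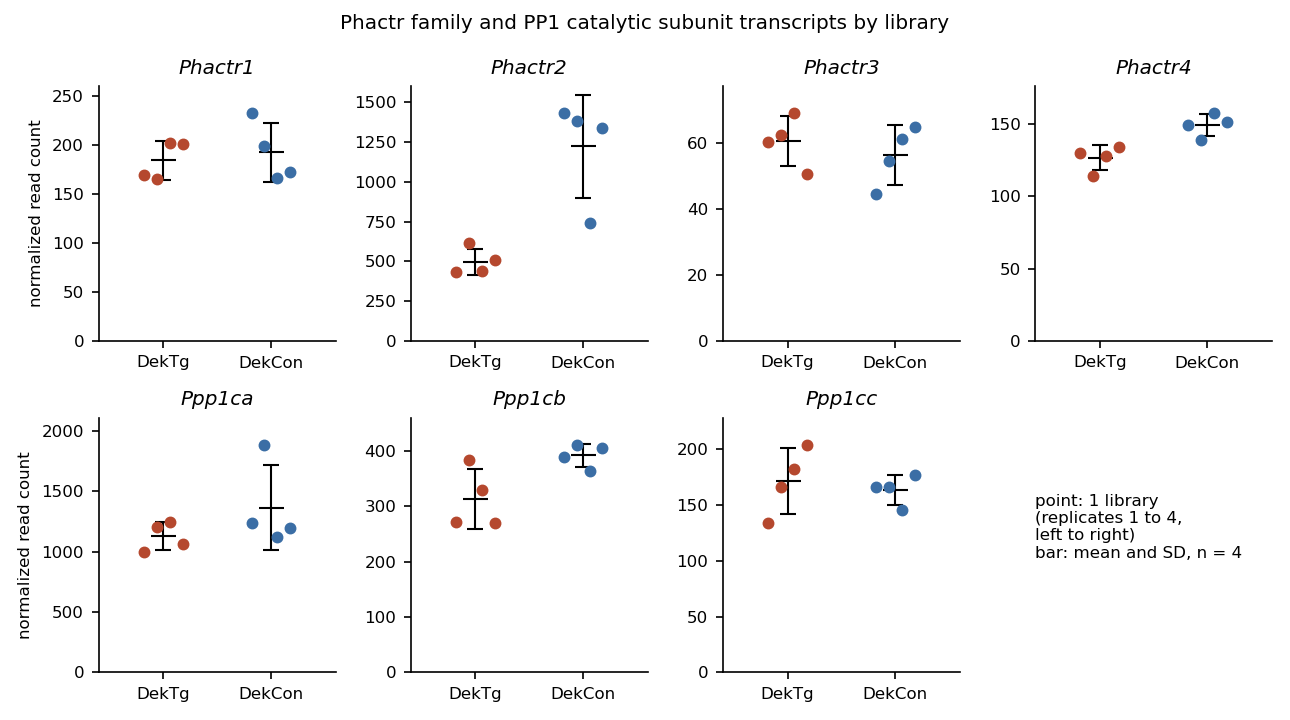
Normalized read counts (y axes, from 0) of the 7 genes, with 1 point per library for DekTg (red, left) and DekCon (blue, right) and the mean ± SD (n = 4) in black. Phactr2 and Phactr4 are the genes whose groups do not overlap, and DekCon replicate 3 at 741 is the lowest DekCon point of Phactr2.

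Across the table, 0.0347% of 37414 genes tested passed (limma adjusted p under 0.05), and 0.00802% passed as lower and 0.0267% as higher in DekTg. All 7 genes were tested, and 1 passed, Phactr2; since that is why the genes were chosen, nothing is read from the count. Phactr2 no longer passed with libraries 1 and 4 of each group averaged (log2 difference -1.17), without DekTg replicate 1 (-1.20) or 3 (-1.21), without DekCon replicate 1 (-1.17) or 4 (-1.21), and without the limma trend or with its robust option, which leave the difference as it is. Groups did not overlap for 2 of the 7, Phactr2 and Phactr4, both lower, and for 3.97% of all genes tested (1.88% lower in DekTg). Of the 7, 2 lay above 0 and 5 below, where 50.6% of all genes tested lay above. The median log2 difference was -0.24 over the 7 genes and 0.0057 over all genes tested. With equal library totals these medians were -0.15 and 0.08, and with quantile normalization they were -0.08 and 0.0046. The spread between libraries differed among the genes: in DekTg the coefficient of variation ran from 6.94% for Phactr4 to 17.3% for Ppp1cc, and in DekCon from 5.19% for Phactr4 to 26.5% for Phactr2.

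Levels can be set side by side only after division by transcript length, here the union of GENCODE exons, from 2.52 kb for Ppp1ca to 11.7 kb for Phactr2. In DekTg, Ppp1ca had the highest level per kb, 447 ± 47 normalized reads, followed by Ppp1cc at 50.04 ± 8.65 and Phactr2 at 42.5 ± 7.2 (SD, n = 4). Ppp1cc and Phactr2 overlapped there, as did the next pair, Ppp1cb at 28.7 ± 4.9 and Phactr4 at 25.5 ± 1.8. Phactr1 at 19.1 ± 2.1 and Phactr3 at 9.44 ± 1.20 per kb were lower still, in all 4 libraries.

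In DekCon the order was different in 1 place. Phactr2 was second at 105 ± 28 per kb, above Ppp1cc at 47.7 ± 3.9 in all 4 libraries. Ppp1ca was again first, at 540.3 ± 139.5, and Ppp1cb (36.0 ± 2.0), Phactr4 (30.1 ± 1.6), Phactr1 (20.003 ± 3.138) and Phactr3 (8.78 ± 1.40) followed without overlap between neighbours. Over the 8 libraries, the mean level per kb of Ppp1ca exceeded that of 99.2% of 18299 protein-coding genes tested, that of Phactr2 exceeded 90.6%, and that of Phactr3 exceeded 40.8%. The exon union takes in exons that these cells may not use, so a level per kb can understate genes with many isoforms.

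**Figure D3:**
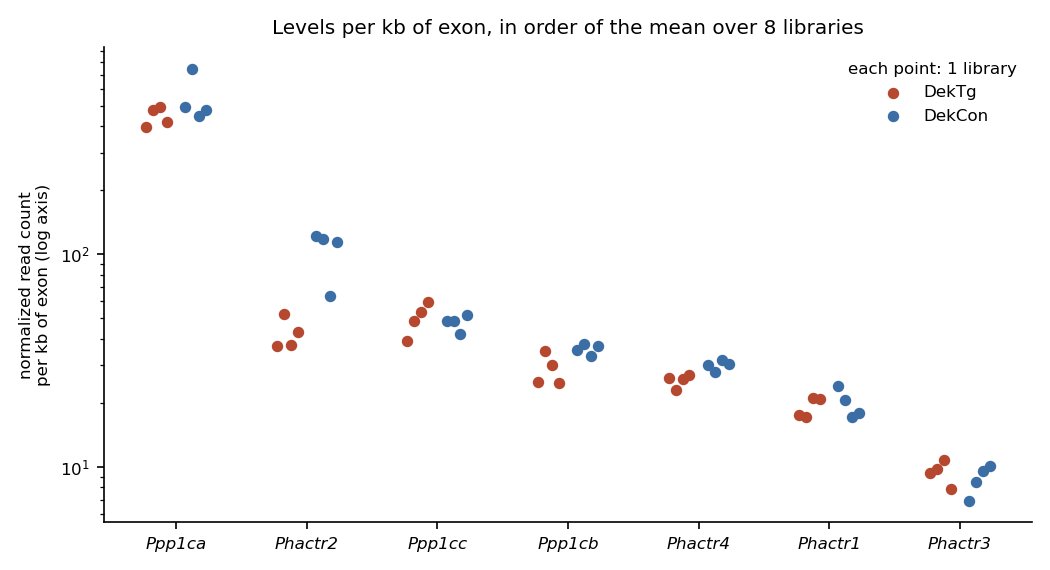
Normalized read count per kb of exon (log axis) of the 7 genes, ordered by the mean over 8 libraries, with DekTg in red at the left and DekCon in blue at the right of each gene. Ppp1ca lies between 396 and 748 in every library, and Phactr2 lies above Ppp1cc in the 4 DekCon libraries and overlaps it in DekTg.

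The make-up of the family followed from Phactr2, and the following shares describe the same difference. Phactr2 made up 43.8 ± 5.3% of the summed Phactr level per kb in DekTg and 63.0 ± 7.4% in DekCon (SD, n = 4 each). The 3 other Phactr genes together had 54.1 ± 3.4 per kb in DekTg and 58.9 ± 1.7 in DekCon, and these groups overlapped. Summed Phactr level per kb was 0.185 ± 0.015 of summed catalytic subunit level in DekTg and 0.267 ± 0.053 in DekCon. Ppp1ca made up 85.0 ± 1.2% of the catalytic level per kb in DekTg and 86.2 ± 2.4% in DekCon, with overlapping groups. These are transcript levels, and they give no amount of protein or of complex.

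After removal of the group means, Phactr2 varied among libraries most like Tbl1x, a corepressor subunit (Pearson r = 0.995 over 8 libraries), AW112010 (0.992), Pold4, the small subunit of DNA polymerase delta (0.978), Dazap2 (0.977) and Pigv, a mannosyltransferase of glycosylphosphatidylinositol anchor synthesis (0.976). In all 5, DekCon replicate 3 was the lowest DekCon library, as for Phactr2. With 8 libraries that share their scaling, 69 of 11808 genes with a mean value of at least 50 had r above 0.9. Between groups the 5 genes overlapped: Tbl1x averaged 325 ± 17 in DekTg and 360 ± 41 in DekCon, and Dazap2 averaged 1218 ± 99 in DekTg and 1394 ± 169 in DekCon (SD, n = 4 each). Within groups, r with Phactr2 was 0.52 for Ppp1cb, 0.46 for Ppp1ca, 0.45 for Ppp1cc, 0.38 for Phactr1, -0.38 for Phactr3 and -0.64 for Phactr4.

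Other genes of PP1 and of actin control were read from the same fit, where limma adjusted p-values are over all 37414 genes. Of 39 other PP1 regulatory subunits, 33 were tested and 0 passed in either direction, with 4 at an unadjusted p under 0.05 (6.93% of all genes tested had one). Their median log2 difference was -0.08, and 0.01 with values rescaled to equal library totals. That rescaling raised the median of all genes tested from 0.0057 to 0.08. The shift applies to each list value given below with equal library totals. Ppp1r8, which encodes NIPP1, a nuclear inhibitor of PP1, had 98.1, 111, 110 and 111 in DekTg, against 166, 177, 114 and 176 in DekCon. The groups did not overlap, with DekCon replicate 3 next to the DekTg values (log2 difference -0.54, SE 0.16, limma adjusted p = 0.707). Ppp1r15a, which encodes GADD34, the subunit that directs PP1 to the translation factor eIF2 alpha, had 150, 129, 115 and 160 in DekTg, against 185, 179, 178 and 218 in DekCon. These groups did not overlap either (-0.46, SE 0.14, limma adjusted p = 0.707). Ppp1r36, named after its values were seen, was the third of the list without overlap and lay higher, at 11.5 ± 2.9 in DekTg and 5.57 ± 1.65 in DekCon (0.93, SE 0.37, limma adjusted p = 0.711). Groups did not overlap for 3.97% of all genes tested. Genes named for the smallest p of a list tend not to overlap, so nothing is read from it.

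Of 16 other proteins that dock on PP1, among them chromosome, centrosome and mitochondrial anchors, 0 passed, 14 lay below 0 and the median was -0.14 (-0.05 with equal library totals, -0.06 with quantile normalization and -0.24 without DekTg replicate 2); 49.4% of all genes tested lay below 0. Nek2, a centrosomal kinase that forms a complex with PP1, had 81.6, 48.0, 77.6 and 67.2 in DekTg, against 95.1, 188, 106 and 88.0 in DekCon. The groups did not overlap, and DekCon replicate 2 was far above the other DekCon libraries (log2 difference -0.75, SE 0.23, limma adjusted p = 0.707). Akap1, an anchor of the mitochondrial outer membrane, averaged 55.4 ± 10.1 in DekTg and 77.7 ± 14.2 in DekCon, also without overlap (-0.48, SE 0.19, limma adjusted p = 0.711). Both were named for the smallest p of the list, and 3.97% of all genes tested did not overlap.

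Of 10 catalytic subunits of the related phosphatases, 0 passed, 5 lay above 0 and 5 below, and the median was -0.00080 (0.08 with equal library totals). Ppp4c, the catalytic subunit of protein phosphatase 4, averaged 238 ± 17 in DekTg and 296 ± 49 in DekCon (log2 difference -0.30, SE 0.14, limma adjusted p = 0.711). Ppef2, a phosphatase with calcium-binding domains known from retina, averaged 9.59 ± 5.52 in DekTg and 4.50 ± 3.48 in DekCon, with overlapping groups (1.123, SE 0.645, limma adjusted p = 0.755). Its log2 difference was 0.43 without DekCon replicate 1, and 1.92 with a pseudocount of 0.1 or 0.61 with one of 5.

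Of 5 proteins linked to Phactr proteins as substrates of PP1, 0 passed, 4 lay below 0 and the median was -0.11 (-0.02 with equal library totals and 0.0035 with quantile normalization). Of all genes tested, 49.4% lay below 0. Cfl1, which encodes cofilin, averaged 2855 ± 130 in DekTg and 3247 ± 498 in DekCon (log2 difference -0.17, 95% interval -0.45 to 0.10, limma adjusted p = 0.811), and its difference was 0.0035 with quantile normalization. Rb1, the retinoblastoma protein, averaged 39.1 ± 8.6 in DekTg and 46.2 ± 6.2 in DekCon (-0.25, SE 0.21, limma adjusted p = 0.823). Of 16 genes of cofilin and its kinases and phosphatases, 0 passed and the median was -0.10 (0.0063 with quantile normalization); Tesk1, a kinase that acts on cofilin, had a log2 difference of -0.56 (SE 0.40, limma adjusted p = 0.802) at a mean of 8.74 ± 3.86 in DekTg and 12.8 ± 4.8 in DekCon. The difference of Tesk1 was -0.23 without DekTg replicate 2 and -0.34 without DekCon replicate 3, and that of Rb1 was -0.13 without DekTg replicate 1 and -0.38 without DekTg replicate 3.

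Of the 5 other genes with RPEL motifs, 0 passed and the median was -0.02 (0.07 with equal library totals). Arhgap32, a GTPase-activating protein, averaged 145 ± 8 in DekTg and 125 ± 19 in DekCon (log2 difference 0.23, SE 0.15, limma adjusted p = 0.778), and Mrtfb, an actin-sensing coactivator of serum response factor, averaged 180 ± 26 in DekTg and 203 ± 49 in DekCon (-0.15, SE 0.17, limma adjusted p = 0.867). Without DekCon replicate 2 the difference of Arhgap32 was 0.13, and on leaving out single libraries that of Mrtfb lay between -0.29 without DekCon replicate 2 and -0.04 without DekCon replicate 1. Of 23 genes, Srf and cytoskeletal genes that its product, serum response factor, controls, 0 passed, 20 lay below 0 and the median was -0.17. Of all genes tested, 49.4% lay below 0. The median of these 23 stayed below 0 in each of the alternative settings, and was -0.08 with equal library totals. The other lists ran from 14 of 16 below 0 for the docking proteins to 5 of 10 for the related catalytic subunits. Srf, which encodes serum response factor, had 15.7, 7.21, 8.73 and 7.35 in DekTg, against 19.0, 27.8, 24.5 and 14.7 in DekCon. DekTg replicate 1 overlapped DekCon replicate 4 (log2 difference -1.09, SE 0.33, limma adjusted p = 0.707). Pdlim7, an actin-associated scaffold, averaged 54.3 ± 8.9 in DekTg and 76.4 ± 14.6 in DekCon, without overlap (-0.48, SE 0.18, limma adjusted p = 0.711). The gap between its groups was narrow, from 65.9 to 66.4. Srf and Pdlim7 were named for the smallest p of the list, and 3.97% of all genes tested did not overlap.

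**Figure D4:**
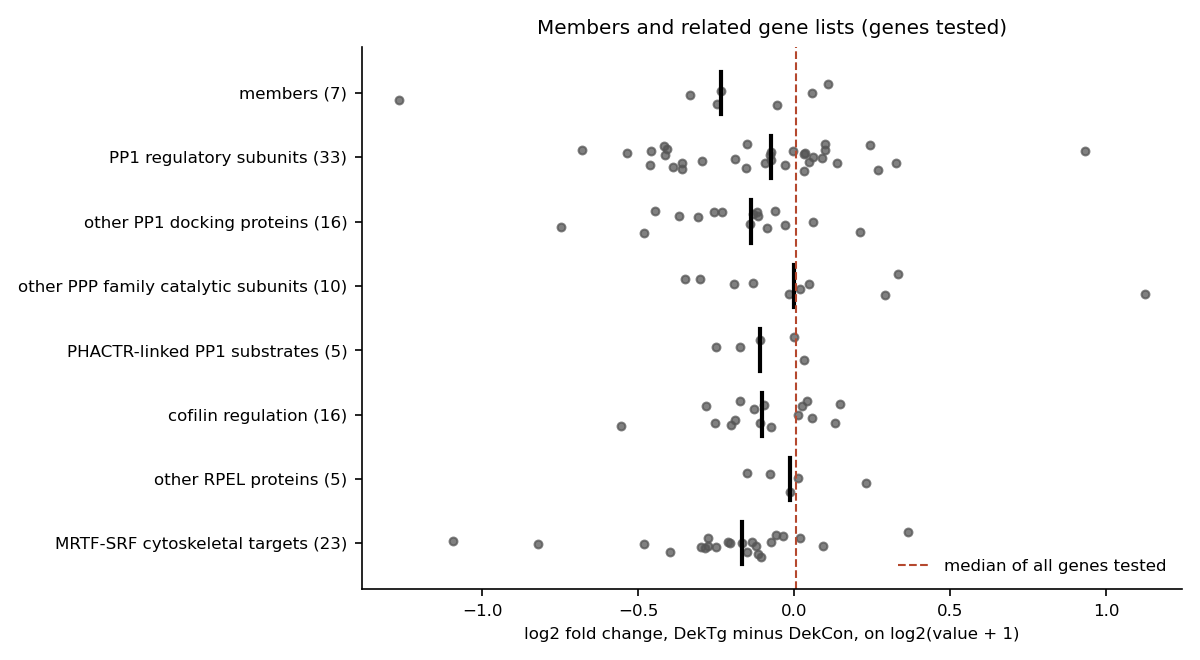
Log2 fold change (DekTg minus DekCon, x axis) of each tested gene of 8 lists, with the number tested in brackets; black bars are list medians and the dashed line is the median of all genes tested, 0.0057. The list medians lie between -0.24 for the 7 Phactr and catalytic subunit genes (-0.08 with quantile normalization) and -0.00080 for the other phosphatase catalytic subunits (0.08 with equal library totals). With equal library totals the median of all genes tested was also 0.08.

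Markers of other blood cells moved between the libraries as well. The 10 B lymphoid and plasma cell markers all had reads, 2 of them passed as higher in DekTg (Igkc and Jchain), and the DekTg sums lay between 4580 and 5406, against 498 to 1274 in DekCon (two-sided exact permutation p = 0.0286, the smallest this design allows; adjusted p = 0.286 over 10 marker lists). Of 10 erythroid markers, 3 passed as higher, the globins Hba-a1, Hba-a2 and Hbb-bs, while the list summed to between 2157 and 3469 in DekTg and between 1977 and 3024 in DekCon. Most of that sum was Car2, which averaged 2010 in DekTg and 2182 in DekCon. Klf1 averaged 42.6 in DekTg and 99.9 in DekCon, and Epor averaged 24.6 and 58.0, with overlapping groups. The means of the remaining markers of the list were higher in DekTg. The 9 megakaryocyte and platelet markers summed to between 2391 and 3845 in DekTg and to between 3139 and 10574 in DekCon, and the 9 neutrophil markers to between 2181 and 16411 in DekTg and to between 3930 and 10121 in DekCon, with 0 passing in either list. The neutrophil sum of 16411 was that of DekTg replicate 3. All markers of these 4 lists had reads. Their part in the Phactr2 difference was not tested.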

How the data were processed

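RNA of the sorted cells was converted to cDNA and amplified with the Geo-seq protocol for small cell numbers, then made into libraries by tagmentation, per the labels' protocols. The submitters' processing notes name build mm10, HTSeq, DESeq2, Cufflinks 2.1.1 and Bowtie 0.12.9, with no order; strand setting and annotation were not given in the sources used here. Each deposited value is a signal for a gene in 1 library: the table's name says FPKM, but 99.99% of 417792 values are whole multiples of 1 step per library (tolerance 0.001 reads), and the steps match median-of-ratios size factors within a relative 4.4e-05. They were read as counts divided by size factors. The 25 values that are not whole lie in 6 genes (Cdc20, Cdk1, Csf2, Dek, Fos and Ifit2).

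Genes with a value of at least 1 in at least 4 of 8 libraries were fitted with limma 3.58.1 (R 4.3.3) on log2(value + 1) with a mean-variance trend and no covariate; this scale understates changes of low genes. P-values were adjusted by Benjamini-Hochberg over all genes, with a threshold of 0.05, two-sided. The fit was tested on simulated data. Reads are amplified molecules without identifiers, so read numbers show counting error only. The labels do not say that libraries come from separate mice, so p-values measure only how these samples vary, and that spread may be technical. The alternatives changed the pseudocount, the filter, the scaling or a limma option, or used edgeR 4.0.16 and DESeq2 1.42.0 on the recovered reads, the replicate number as a block, libraries 1 and 4 averaged, or 1 library fewer; leaving out the 6 genes was added after seeing the data. Members, lists and tests were chosen with earlier results of these data known. Named genes are the 7 members, the members of each list that passed (at most 4 per direction) or else the 2 of smallest p, the 5 genes most like Phactr2, its 3 nearest coding genes on each side, and genes whose span overlaps a member. Positions are from GENCODE M21 and promoters from RefSeq, which held 5 of the 7 genes; all 204 symbols matched.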

Additional observations from a re-analysis of the deposited data

Results flagged for a closer look

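In 40 groups of 4 values, for the 7 Phactr and catalytic subunit genes and the list genes named above, 3 groups held a library far from the other 3, where chance gives about 1 in 20 groups. Phactr2 in DekCon replicate 3, at 741, lay apart from the other DekCon libraries at 1338 to 1431. Ppp1ca in DekCon replicate 2, at 1884, lay above the other DekCon libraries at 1124 to 1240. Ppp1r8 in DekTg replicate 1, at 98.1, lay below the other DekTg libraries at 110 to 111.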

How the results depend on the processing

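The log2 difference of Phactr2 was below 0 in all 21 alternatives, between -1.49 without DekCon replicate 3 and -1.11 with quantile normalization. The groups of Phactr2 and Phactr4 do not overlap, so leaving out a library could not change the sign of either. Nor could another pseudocount or the average of libraries 1 and 4. The filters, the limma trend and robust options and the replicate block leave the difference of each of the 7 genes as it is. Nothing is therefore read from the number of alternatives below 0. Of the 7 genes, 0 passed without the limma trend, with the robust option and with libraries 1 and 4 averaged, and between 0 and 1 passed on leaving out each library: 0 without DekTg replicate 1 or 3 and without DekCon replicate 1 or 4. Over all genes, 13 passed, and 4 did so without the trend, 8 without the 6 genes with values off the read steps (an alternative chosen after seeing the data), 9 with edgeR, 16 with DESeq2 and 13 to 22 on leaving out each library, with 22 without DekTg replicate 2. The cause of these changes was not tested. Phactr4, Ppp1ca and Ppp1cb stayed below 0 in all 21 alternatives and passed in 0, Phactr3 lay above 0 in all 21 but at 0.0012 without DekCon replicate 1, and Phactr1 and Ppp1cc changed sign in 3 and 2 of them. None of the 7 lists had a gene that passed in these 21 alternatives, edgeR and DESeq2 included; the lists were not counted in the fit without the 6 genes. Cfl1 turned to 0.0035 with quantile normalization. Deviations of same-numbered libraries correlated at 0.03, 0.0070, 0.04 and 0.15. Those of differently numbered libraries lay between -0.27 (DekTg replicate 4 with DekCon replicate 3) and 0.27 (DekTg replicate 2 with DekCon replicate 3). Such correlations cannot show whether replicate numbers pair the libraries, since paired libraries need not deviate together. With the replicate number as a block 15 genes passed, 1 of them a member. Phactr3 and Srf rest on few reads, which limits their precision.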
